A study of Bos taurus with 12 samples.

Results

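CpG sites lying no more than 1 kb from a transcription start were examined in bovine blood, as the annotation deposited with a table of 196275 listed CpG cytosines places them. The rule took every row whose annotation class was the innermost promoter class, and it found 3212 cytosines next to 1811 genes. Blood came from 12 cows kept under the same conditions on 1 farm. The Mastitis Susceptible Group (MSG) held 6 cows culled within 1 year of sampling for complications of mastitis that were not known at sampling. The Mastitis Resilient Group (MRG) was made up of 6 cows, matched in age range, that remained in the herd after that year. No treatment, allele, breed, parity or count of blood cells was given for either group, and each cow was 1 sample. DNA methylation was read by enzymatic conversion, in which TET2 and T4-BGT shield modified cytosines and APOBEC3A deaminates the others. Methylated and hydroxymethylated cytosines therefore both count as methylated, and a thymine carried in a cow's own genome reads as an unmethylated cytosine.

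In mammals most CpG sites of the genome are methylated, while CpG-rich stretches at the starts of many genes, the CpG islands, are usually kept free of methylation. Methylation close to a start tends to go with a silent gene, and blood cell types carry different patterns at the genes that define them. Imprinted genes are an exception to the usual picture, because 1 parental copy is methylated and the other is not. In whole blood a shift in the mixture of cell types and a shift of methylation within a cell type cannot be told apart.

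The authors listed a cytosine only if the groups' methylation differed by at least 25 points with a q-value of 0.01 or less, computed on these same cows. A difference between MSG and MRG at a listed site is thus how the site was chosen, and a new test on these cows gives no independent evidence. Values are percent methylation per cow, differences are percentage points of MSG minus MRG, and a cow is named by its group and a replicate number that pairs no cows. Read depth could not be assigned to cows and is unknown, so the number of reads behind a value of exactly 0 or 100 is not known. Because only selected methylation sites were listed, the labelled tissue could not be checked against its markers. Of the 3212 sites, 2538 had a value for all 12 cows, and the rest had at least 5 cows per group.

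The sites stood at intermediate methylation in every cow. Averaged over the 3212 sites, the cows ran from 51.8% to 56.1%, with MSG at 55.5% ± 0.470 and MRG at 53.9% ± 1.27 (SD, n = 6 each). The lowest value belonged to MRG replicate 1, and the 2 groups overlapped. This average is made of extremes: across cows and sites 20.4% of values were exactly 0, 19.2% were exactly 100 and 18.4% lay from 40% to 60%. At least 1 cow was at exactly 0 at 2434 sites (75.8%, against 78.3% of the other listed sites), and at least 1 was at 100 at 71.3% (others 68.8%).

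**Figure D1:**
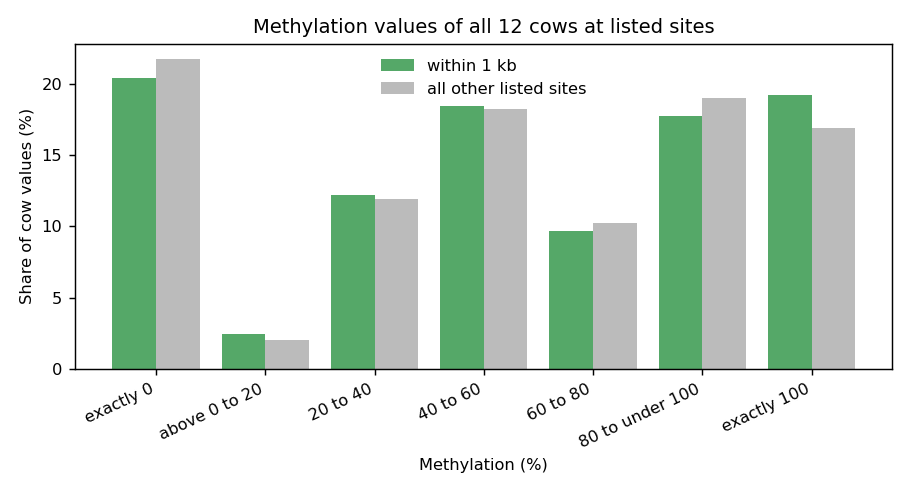
Share of all values (vertical axis, percent of values) in each range of methylation (horizontal axis, percent methylation) for sites within 1 kb of a start and for all other listed sites, with exactly 0 and exactly 100 as ranges of their own. Sites within 1 kb held 20.4% of values at 0 and 19.2% at 100, against 21.7% and 16.9% elsewhere.

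Within the same cow, these sites were slightly more methylated than the other listed sites. The difference was 0.922 points ± 0.607 (SD over 12 cows), higher in 11 of 12 cows (exact sign-flip permutation test over cows, two-sided, p = 0.00146, adjusted p = 0.00330 over 9 comparisons). They were 2.12 points ± 0.752 above distal intergenic sites in 12 of 12 cows and differed by -0.780 points ± 0.547 from intronic sites, lower in 12 of 12 (exact sign-flip test, adjusted p = 0.00146 for both, at the smallest p the test can give, 0.000488). Exonic sites stood higher, at 58.4% ± 0.849, above the sites near starts in 12 of 12 cows (mean difference -3.72 points ± 0.890, not tested). The sign-flip tests cover the spread between cows and not the choice of sites. The difference from the other listed sites turned to -0.726 points (exact sign-flip p = 0.267) once sites with any cow at exactly 0 were left out.

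Fully methylated values were more frequent near starts than over the other listed sites as a whole. The share of sites at exactly 100 was 19.2% ± 1.34 (SD, n = 12), which was 2.26 points ± 0.563 above the other listed sites in 12 of 12 cows (exact sign-flip test, adjusted p = 0.00146). The share at exactly 0 was 20.4% ± 1.56, with a mean difference of -1.26 points ± 1.05 from the others, lower in 11 of 12 cows (exact sign-flip test, adjusted p = 0.00513). Other listed sites within genes held more values at 100: introns 20.1% ± 1.13, above the sites near starts in 11 of 12 cows, and exons 25.7% ± 1.64, above them in 12 of 12, both given without a test.

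Against the 7464 listed sites of the outer promoter, 1 to 3 kb from a start, no difference passed the test. The level differed by -0.428 points ± 1.26 over 12 cows (exact sign-flip test, adjusted p = 0.290), the share at 0 by -0.361 points ± 0.800 (adjusted p = 0.185) and the share at 100 by -0.186 points ± 0.948 (adjusted p = 0.527). In MSG the level near starts was below the outer promoter by -1.47 points ± 0.840 with 0 of 6 cows higher, and in MRG it was above it by 0.614 points ± 0.445 with 5 of 6 cows higher. Outer promoter sites were also more often listed as higher in MSG (55.4% against 52.2% near starts), and the part of that share in these levels was not tested.

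**Figure D2:**
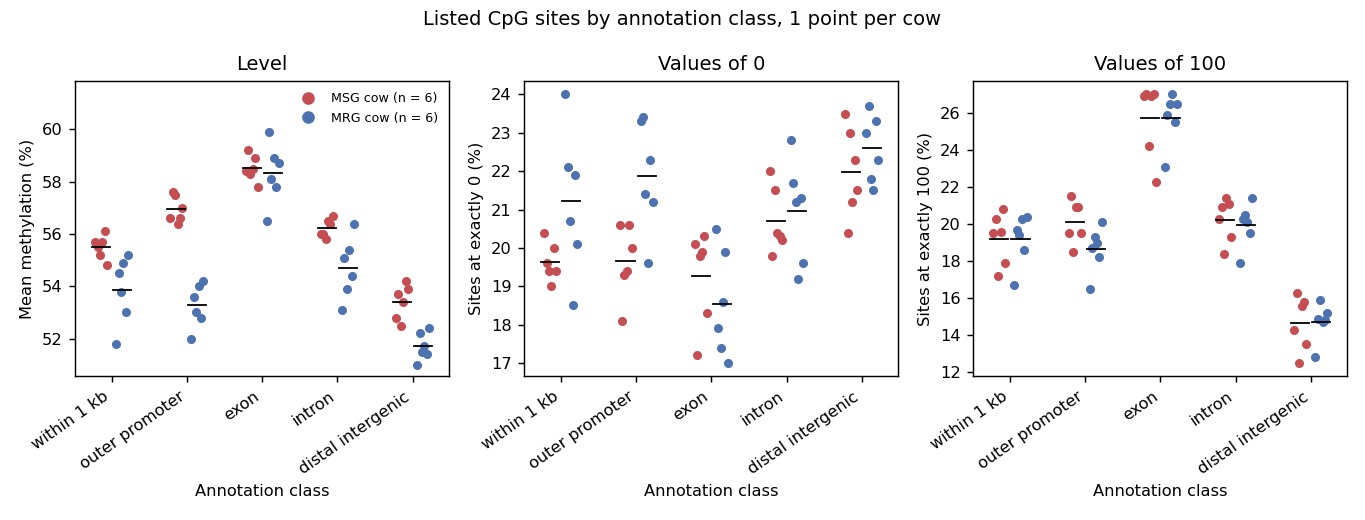
Mean methylation, share of sites at exactly 0 and share at exactly 100 (vertical axes, percent) by annotation class (horizontal axis), with 1 point per cow and a bar at each group's mean; the axes do not start at 0. Sites within 1 kb lay between 51.8% and 56.1%, above distal intergenic sites in every cow, while outer promoter sites were split by group.

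Listed sites after the start were slightly more methylated than those before it. The 1623 sites before the start averaged 53.9% ± 1.43 and the 1589 sites after it 55.5% ± 1.33 (SD, n = 12). The latter were 1.63 points ± 1.24 higher in 10 of 12 cows (exact sign-flip test, p = 0.00195, adjusted p = 0.00352). That test covers the spread between cows and not the choice of sites. Sites with a cow at exactly 0 made up 78.2% to 80.4% of each bin before the start and 70.0% to 77.2% of each bin after it. The comparison was not repeated without such sites. In bins of 250 bases the sites were spread evenly, 355 to 456 per bin, with levels of 53.0% to 56.1%. Among listed sites no bin stood out as a trough at the start itself. The 376 sites in the last 250 bases before it averaged 55.7% and the 455 in the first 250 bases after it 55.6%. Sites with similar methylation in both groups, such as those unmethylated in every cow, were not listed. These levels therefore do not describe starts in general.

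**Figure D3:**
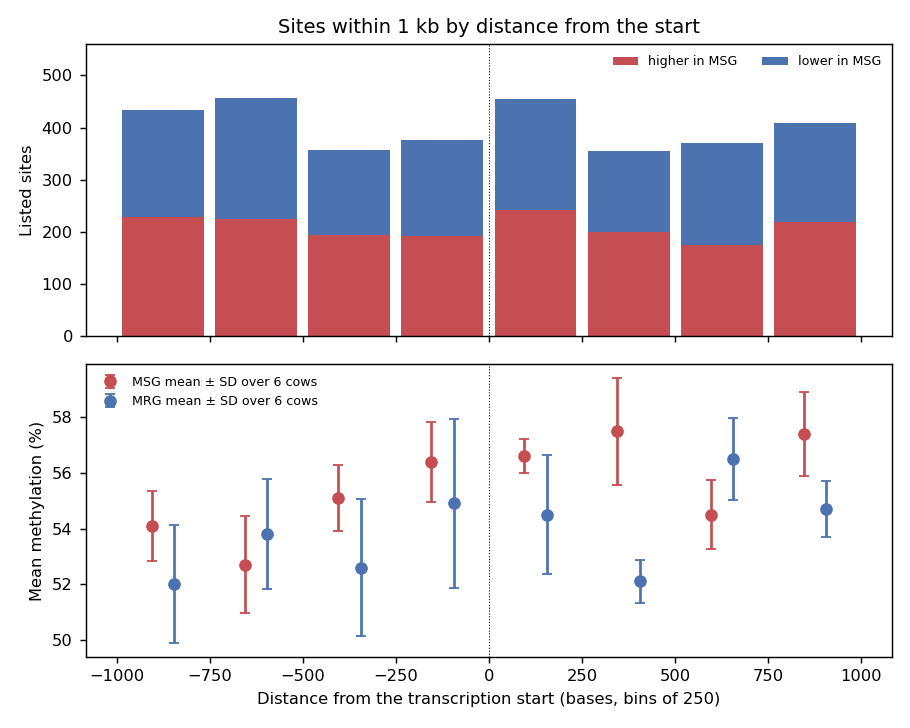
Upper panel, number of listed sites (vertical axis) higher and lower in MSG by distance from the start (horizontal axis, bases); lower panel, mean methylation (percent) of each group with the SD over 6 cows, on an axis that does not start at 0. Sites fill all 8 bins about equally, and the share higher in MSG ran from 47.3% to 56.3%.

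Sites of both directions were nearly balanced. In MSG 1677 sites were higher and 1535 lower, a share of 52.2% higher (Wilson 95% interval 50.5% to 53.9%, for counting error only and with neighbouring sites not independent), against 52.7% of all listed sites. The share was 52.0% of 2540 CpGs when the 2 strands of a CpG counted once, 51.7% of 1767 genes by majority, and 52.7% of the 636 sites with a difference of 40 points or more. At the 778 sites with no cow at 0 it was 51.3%, against 57.4% of the other listed sites of that kind.

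Higher sites had a mean of 72.2% ± 2.22 in MSG and 38.5% ± 3.74 in MRG, and lower sites 37.2% ± 2.56 and 70.8% ± 2.69 (SD, n = 6 each), which is a description of how they were chosen. For single sites the median absolute difference was 32.7 points and the median SD within a group 26.0 points.

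No single site passed a test across cows. With limma and Benjamini-Hochberg adjustment over all 196275 sites, 0 of the 3212 sites reached an adjusted p under 0.05 (lowest 0.0781), as did 0% of all listed sites. At an unadjusted p under 0.05 there were 1665 (51.8%), against 51.9% of all listed sites. The exact permutation test could pass no site here, because even its smallest p, 0.00216, gave an adjusted p of 0.110. Its 0 after adjustment is therefore no second result. By that test 1155 sites had an unadjusted p under 0.05 (36.0%, against 35.5% of all listed sites). Every MSG cow lay on 1 side of every MRG cow at 102 sites (3.18%), 64 higher and 38 lower in MSG, against 2.36% of all listed sites.

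Both cytosines of a CpG were listed at 672 of the 2540 CpGs, and in all 672 they pointed the same way. So did all 42400 such pairs at the other listed CpGs. Both cytosines had passed the same selection on the same cows, so this is no independent check. The median absolute difference between the strands of 1 cow was 5.56 points, the same as at the other listed CpGs. The authors also listed windows of 500 bases, made from the same reads, and 20 of these were annotated within 1 kb of a start. In all 20 the cows of the groups overlapped. Listed sites lay in 15 of the windows, and all 15 had the direction of those sites, which is no independent check because the reads are shared. Over those windows the median absolute difference was 27.2 points, against 39.5 points for their listed sites. In the MYL10 window (chromosome 25, 35179001 to 35179500) the cows averaged 76.7% ± 13.8 in MSG and 52.6% ± 6.74 in MRG, whereas its 5 listed sites averaged 57.8% and 0%.

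Most genes held few listed sites near their start: 1077 of 1811 had 1 and 459 had 2. The remaining 275 genes, with 3 or more sites and 1217 sites in all, are called promoters here. Each cow's value is the mean over those of a promoter's sites that have a value in that cow. Cows of 1 promoter can therefore be averaged over different sites. All sites were higher in MSG in 113 promoters, all were lower in 94, and 68 held both directions. In 193 promoters every site had a cow at exactly 0, and in 28 no site had one. Sites lay around more than 1 annotated start in 67 promoters. Protein-coding genes gave 2056 of the 3212 sites (64.0%), microRNA genes 119, small nuclear RNA genes 132 and small nucleolar RNA genes 49, while 760 sites belonged to genes with no match in the names table.

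Promoter means were compared together with all other gene means by annotation class, 11824 in all. With limma and Benjamini-Hochberg adjustment 13 of 275 promoters passed (4.73%), 10 higher and 3 lower in MSG, against 1.28% of all means and 2.86% of outer promoters. All 13 lay just under the threshold, with adjusted p from 0.0480 to 0.0495, and a further 58 had an adjusted p from 0.05 to 0.07. Of the 13, MYL10, IQSEC3, PLAC8B, THSD7B, MIR141 and OR10D1M are described below, LOC112448185 is a gene for U6 spliceosomal RNA, and 6 carried an Ensembl identifier alone. These last include the 3 lower promoters, named after their values were seen: ENSBTAG00000051481 (0% to 38.1% in MSG, 39.9% to 97.5% in MRG), ENSBTAG00000052125 (0% to 41.8% and 32.5% to 91.0%) and ENSBTAG00000045951 (1.14% to 24.0% and 31.9% to 73.5%). The second of these had overlapping groups. An unadjusted p under 0.05 was reached by 174 (63.3%, against 43.9% of all means and 59.5% of outer promoters). The cows did not overlap in 13 (4.73%, against 2.85% of all means and 3.50% of outer promoters), 9 higher and 4 lower. Promoter means rested on a median of 4 sites and a median absolute difference of 31.8 points, other means on 7 sites and 20.5 points, so these shares do not compare like with like. Under the exact permutation test 0 promoters passed after adjustment and 136 had an unadjusted p under 0.05 (49.5%, against 37.5% of all means and 45.6% of outer promoters). With the smallest p of that test, 0.00216, a mean reached an adjusted p of 0.0759 here, so no promoter could pass it. Leaving out a cow moved the limma count from 0 (without MRG replicate 5) to 34 (without MRG replicate 4). Counting the strands of a CpG once left 0 of 162 promoters passing. Only 5 of the 13 had enough CpGs to be tested that way, among them MYL10 (51.0 points), OR10D1M (42.7), IQSEC3 (39.7) and THSD7B (30.3), each with a limma adjusted p of 0.0541. The values below are therefore given for description, with limma's Benjamini-Hochberg adjusted p beside them. Coordinates are those of the build ARS-UCD1.2 and span the first to the last listed site.

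The most sites of 1 direction lay at MYL10, a myosin light chain gene. Its 18 sites were all higher in MSG, placed around 3 annotated starts (chromosome 25, 35177426 to 35181747). MSG cows stood at 23.6% to 91.2% with a median of 62.1%, and MRG cows at 10.6% to 21.9% with a median of 13.1%. The lowest MSG cow was thus above the highest MRG cow, with a mean difference of 50.4 points (SE 9.84, limma adjusted p = 0.0480). RYR2 encodes the calcium release channel of the heart muscle's internal store. Its 12 sites (chromosome 28, 9910500 to 9915943) were methylated in all MSG cows, from 88.7% to 92.1% with a median of 90.2%. In MRG they ran from 0% to 91.3% with a median of 53.5%, so that MRG replicates 2 and 6 matched the MSG cows and MRG replicate 5 was at 0 (difference 35.6 points, SE 12.7, limma adjusted p = 0.0770).

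IQSEC3, an exchange factor for ARF GTPases at inhibitory synapses, had 4 sites spanning its start (chromosome 5, 107106027 to 107106792). MSG cows stood at 35.4% to 85.0% (median 74.2%) and MRG cows at 15.6% to 33.8% (median 25.3%), with no overlap (40.7 points, SE 8.40, limma adjusted p = 0.0480). NCAM2, a neural cell adhesion molecule, had 12 sites around 4 starts, all higher in MSG (chromosome 1, 15552967 to 15555722). Its cows fell at distinct levels: MSG replicates 1, 2 and 3 at 77.6% to 84.8% and the other MSG cows at 36.0% to 44.3%, MRG replicates 1, 5 and 6 at 39.6% to 40.8% and the other MRG cows at 0% to 1.19%. The groups overlapped (41.1 points, SE 11.9, limma adjusted p = 0.0650). TAAR3, a trace amine receptor gene of the olfactory epithelium, had 3 sites (chromosome 9, 70774143 to 70775501) at 36.5% to 75.1% in MSG (median 38.4%) and 0% to 35% in MRG (median 12.8%). The ranges nearly met without overlapping, and the difference was 29.5 points (SE 9.11, limma adjusted p = 0.0669).

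THSD7B, which encodes a protein with thrombospondin repeats, had 3 sites around 2 starts (chromosome 2, 60222214 to 60225186). MSG ran from 45.0% to 83.3% (median 58.2%) and MRG from 25.9% to 40.1% (median 31.3%), with no overlap (30.3 points, SE 6.81, limma adjusted p = 0.0495). PLAC8B, a gene of the placenta-specific 8 family, was a promoter with no cow at 0. Its 4 sites (chromosome 6, 97917473 to 97917801, all before the start) stood at 76.6% to 86.7% in MSG (median 82.0%) and at 30.5% to 75.7% in MRG (median 39.8%). The groups did not overlap, although MRG replicate 4, at 75.7%, came close to the lowest MSG cow (37.5 points, SE 7.32, limma adjusted p = 0.0480).

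ARHGEF10L, a guanine nucleotide exchange factor gene, held the most sites, 22 around 5 starts, of which 16 were higher and 6 lower in MSG (chromosome 2, 135094093 to 135155241). Its promoter means overlapped widely, 44.5% to 81.3% in MSG and 17.8% to 80.1% in MRG (17.4 points, SE 10.3, limma adjusted p = 0.179). The directions were divided by position: in the 100 kb window that starts at 135000001 all 12 sites were higher, and in the next window, which also takes in another gene, 6 of 14 were.

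Among promoters lower in MSG, RADIL and TMEM97 were the ones named by a symbol whose cows did not overlap. RADIL, an effector of the Rap GTPase in cell adhesion, had 9 sites on either side of its start (chromosome 25, 39098553 to 39099995). MSG replicates 1 and 6 were at 0% and the other MSG cows at 36.3% to 43.0%, while MRG replicates 1, 3 and 4 were at 46.5% to 50.1% and MRG replicates 2, 5 and 6 at 84.9% to 90.7%. The groups did not overlap, and the difference was -41.3 points (SE 11.3, limma adjusted p = 0.0604). TMEM97 encodes the sigma-2 receptor, a membrane protein of cholesterol handling. Its 11 sites (chromosome 19, 19805967 to 19806464, all before the start, 10 lower and 1 higher) stood at 12.4% to 30.7% in MSG (median 23.6%) and 31.0% to 72.9% in MRG (median 49.1%). The highest MSG and the lowest MRG cow were 30.7% and 31.0%, so the groups met without overlapping (difference -28.1 points, SE 8.13, limma adjusted p = 0.0650).

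LIPJ and PLA2G2F, each encoding a lipid enzyme, averaged lower in MSG with overlap between the groups. LIPJ, a gene of the acid lipase family, had 11 sites (chromosome 26, 10189764 to 10190947), all lower. MSG replicates 4 and 5 were at 0% and the other MSG cows at 35.2% to 49.4%, MRG replicates 4, 5 and 6 at 35.7% to 51.2% and MRG replicates 1, 2 and 3 at 91.2% to 93.1% (difference -39.9 points, SE 13.1, limma adjusted p = 0.0699). As at RADIL, the cows stood near 0, near the middle and near full methylation, a pattern whose cause was not tested. PLA2G2F, a secreted phospholipase, had 9 sites, 7 lower and 2 higher (chromosome 2, 132508691 to 132509937), at 20.5% to 42.6% in MSG and 21.1% to 69.4% in MRG (difference -22.9 points, SE 8.60, limma adjusted p = 0.0824).

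**Figure D4:**
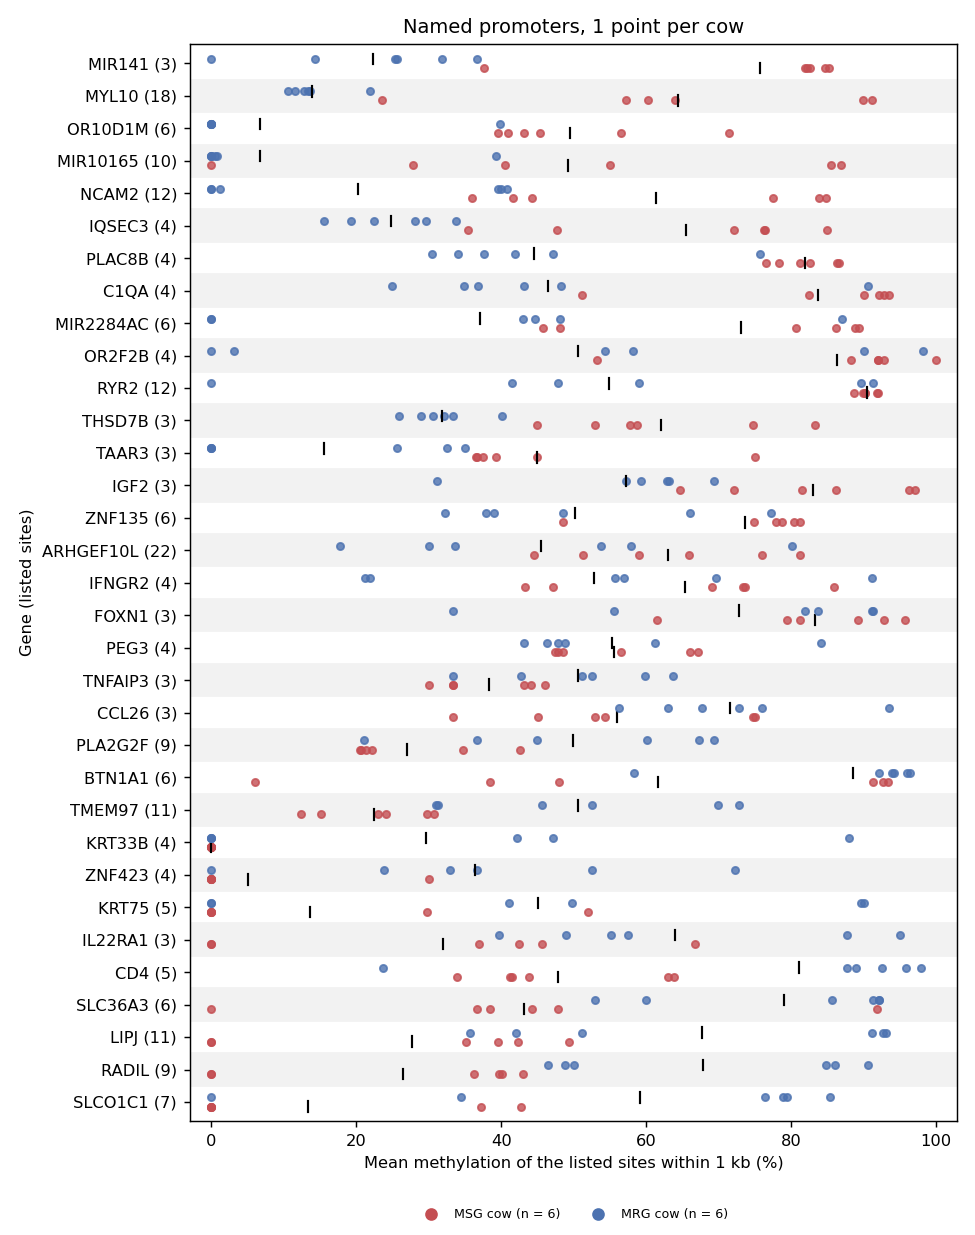
Mean methylation of the listed sites within 1 kb (horizontal axis, percent) for each named promoter (vertical axis, with its number of sites), 1 point per cow and a bar at each group's mean, ordered by MSG minus MRG from SLCO1C1 (-45.8 points) to MIR141 (53.5 points). MYL10, IQSEC3, PLAC8B, THSD7B, TAAR3 and MIR141 show MSG cows above all MRG cows, and RADIL and TMEM97 the reverse.

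MicroRNA genes, whose short products repress messenger RNAs, had 119 sites at 72 genes, 64 higher and 55 lower in MSG (53.8% higher, against 52.2% of all sites near starts). The annotated starts of the microRNAs named here are those of short genes, and whether transcription begins there is not given. MIR141, a member of the miR-200 family of epithelial microRNAs, had 3 sites at 2 CpGs downstream of its annotated start (chromosome 5, 103498606 to 103498637). These sites lay past the far end of the annotated gene, which spans 103498826 to 103498915. In MSG 5 cows stood at 82.0% to 85.3% and MSG replicate 1 at 37.6%, while MRG ran from 0% to 36.6% with a median of 25.5%. There was no overlap, and the difference of 53.5 points (SE 9.13, limma adjusted p = 0.0480) was the largest in either direction of the promoters named by a symbol. Without MSG replicate 2 its adjusted p was 0.0686 and without MRG replicate 5 it was 0.0586.

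MIR10165 had 10 sites on both sides of its start, all higher in MSG (chromosome 26, 43710006 to 43711522). MSG cows were spread from 0% to 86.9% (median 47.7%), and MRG replicate 4 was at 39.3% with the other MRG cows at 0% to 0.833% (42.5 points, SE 13.8, limma adjusted p = 0.0697). The 6 sites of MIR2284AC (chromosome 27, 19450243 to 19451307) stood at 45.8% to 89.4% in MSG and 0% to 87.0% in MRG (36.0 points, SE 14.3, limma adjusted p = 0.0897).

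Of the 11 T cell markers with any listed site, 2 had one near the start, CD4 and LCK, and all 7 of those sites averaged lower in MSG. None of the 7 sites passed the test. CD4 encodes the co-receptor of helper T cells, and its 5 sites lay inside the gene (chromosome 5, 103646708 to 103647228). MSG cows stood at 33.9% to 63.9% (median 42.7%) and 5 MRG cows at 87.7% to 98.0%, but MRG replicate 6 was at 23.7%, below every MSG cow. The difference was -33.2 points (SE 11.7, limma adjusted p = 0.0759), and without MRG replicate 6 it was -44.7 points (adjusted p = 0.0226). With any other single cow left out, limma's adjusted p was 0.0834 to 0.114. Leaving out the cow that went against the difference lowers p by construction, so the smaller value adds no evidence. LCK, the kinase that acts beside CD4, had both cytosines of 1 CpG listed (chromosome 2, 121270382 and 121270383). All 6 MSG cows were at 0% there, MRG replicate 4 was too, and the other MRG cows stood at 22.5% to 51.2%.

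Markers of the other blood cells had few sites near starts, and the 6 sites of MS4A1, BLK, NCR1 and CD163 averaged higher in MSG, none passing the test. For B cells, MS4A1, which encodes CD20, had 1 site (chromosome 15, 83282550) at 78.6% to 100% in MSG and 50% to 66.7% in MRG, with no overlap. BLK, a B cell kinase, had 1 site with MSG at 81.8% to 100% and MRG at 37.5% to 87.5%. The NK cell receptor gene NCR1 had 2 sites, both cytosines of 1 CpG (chromosome 18, 62515703 and 62515704), at 62.5% to 100% in MSG and 0% to 44.4% in MRG. Its groups did not overlap, and its mean difference was 50 points. CD163, the haemoglobin scavenger receptor of monocytes and macrophages, had 2 sites at 91.2% to 96.7% in MSG, inside the MRG range of 28.2% to 100%. No neutrophil, erythroid or platelet marker had a listed site near its start. The part of blood cell composition in these values was not tested.

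Complement and antimicrobial genes had 7 of 7 sites higher in MSG. C1QA and C1QC encode chains of C1q, the recognition protein of the classical complement pathway, and lie side by side on chromosome 2. The 4 sites of C1QA, all before the start (130193854 to 130194513), stood at 82.5% to 93.6% in 5 MSG cows and 51.2% in MSG replicate 5. In MRG 5 cows stood at 24.9% to 48.3% and MRG replicate 6 at 90.6%. The groups therefore overlapped through those cows (37.3 points, SE 10.8, limma adjusted p = 0.0650). Without MRG replicate 6, which went against the difference, it was 46.1 points (limma adjusted p = 0.0438). With any other single cow left out the adjusted p was 0.0507 to 0.0888.

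The 2 sites of C1QC (130186462 and 130186463, 1 CpG) set the same cows apart. MSG replicate 5 was at 34.3% and the other MSG cows at 86.7% to 100%, and MRG replicate 6 was at 96.4% and the other MRG cows at 0% to 47.3%. MRG replicate 6 is also the cow that differed from its group at CD4. DEFB108B, a defensin gene, had 1 site, at 94.4% to 100% in MSG and 33.3% to 100% in MRG.

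Cytokine and cytokine receptor genes had 12 sites at 6 genes, 4 higher and 8 lower in MSG. IL22RA1, the receptor subunit through which epithelial cells sense interleukin 22, had 3 sites before its start (chromosome 2, 128753151 to 128753568). MSG cows stood at 0% to 66.7% (median 39.7%) and MRG cows at 39.7% to 95% (median 56.3%), with overlap (difference -32.1 points, SE 12.9, limma adjusted p = 0.0912). IL22RA2, the soluble receptor that binds and blocks interleukin 22, had both cytosines of 1 CpG listed, also lower in MSG: 5 MSG cows were at 0% and 1 at 45.5%, while 5 MRG cows stood at 41.4% to 90.4% and 1 at 0%. IFNGR2, a subunit of the interferon gamma receptor, had 3 sites higher and 1 lower and no separation, with MSG at 43.3% to 85.9% and MRG at 21.2% to 91.2% (12.7 points, SE 12, limma adjusted p = 0.381). Its difference was 20.3 points without MRG replicate 1, 6.34 without MRG replicate 2 and 6.49 without MRG replicate 3. IL18, IL1R1 and IL34 had 1 site each, the first 2 lower and the last higher in MSG, and overlapped.

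Chemokine genes had 11 sites at 6 genes, 6 higher and 5 lower. CXCL2, a neutrophil-attracting chemokine, had both cytosines of 1 CpG listed (chromosome 6, 88945653 and 88945654). In MSG 5 cows stood at 29.2% to 45.0%, below the MRG range of 70.8% to 93.8%, and MSG replicate 3 at 90.6% lay inside it (mean difference -35.1 points). At CCL21, a chemokine that guides cells into lymph nodes, all 6 MRG cows were listed at 0% and 3 MSG cows stood at 37.5% to 50.9%. CCL26, an eosinophil-attracting chemokine, had 2 sites lower and 1 higher, at 33.3% to 75.1% in MSG and 56.3% to 93.6% in MRG (difference -15.6 points, SE 8.51, limma adjusted p = 0.153). CXCL13 and CCL3 were higher in MSG and XCR1 lower, all with overlap.

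Sensing and signalling genes were few. Pattern recognition had 3 sites at TLR9 and TLR10, 2 higher and 1 lower. NF-kappaB and JAK-STAT signalling had 5 sites, 2 higher and 3 lower. TNFAIP3, which encodes the NF-kappaB inhibitor A20, had 3 of them (chromosome 9, 75740108 to 75740138), at 30% to 46.1% in MSG and 33.3% to 63.7% in MRG (difference -12.2 points, SE 6.29, limma adjusted p = 0.138). BOLA-DYA, a class II antigen presentation gene, had 2 lower sites, with MSG at 0% to 52.8% and MRG at 0% to 100%. DOCK2, ITGAE and JAM3 from the adhesion list had 1 site each, all 3 higher in MSG with overlap. ZBTB38, which binds methylated DNA, had 1 site, at 65.0% to 100% in MSG and 33.3% to 64.7% in MRG, so that the groups nearly met without overlapping.

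**Figure D5:**
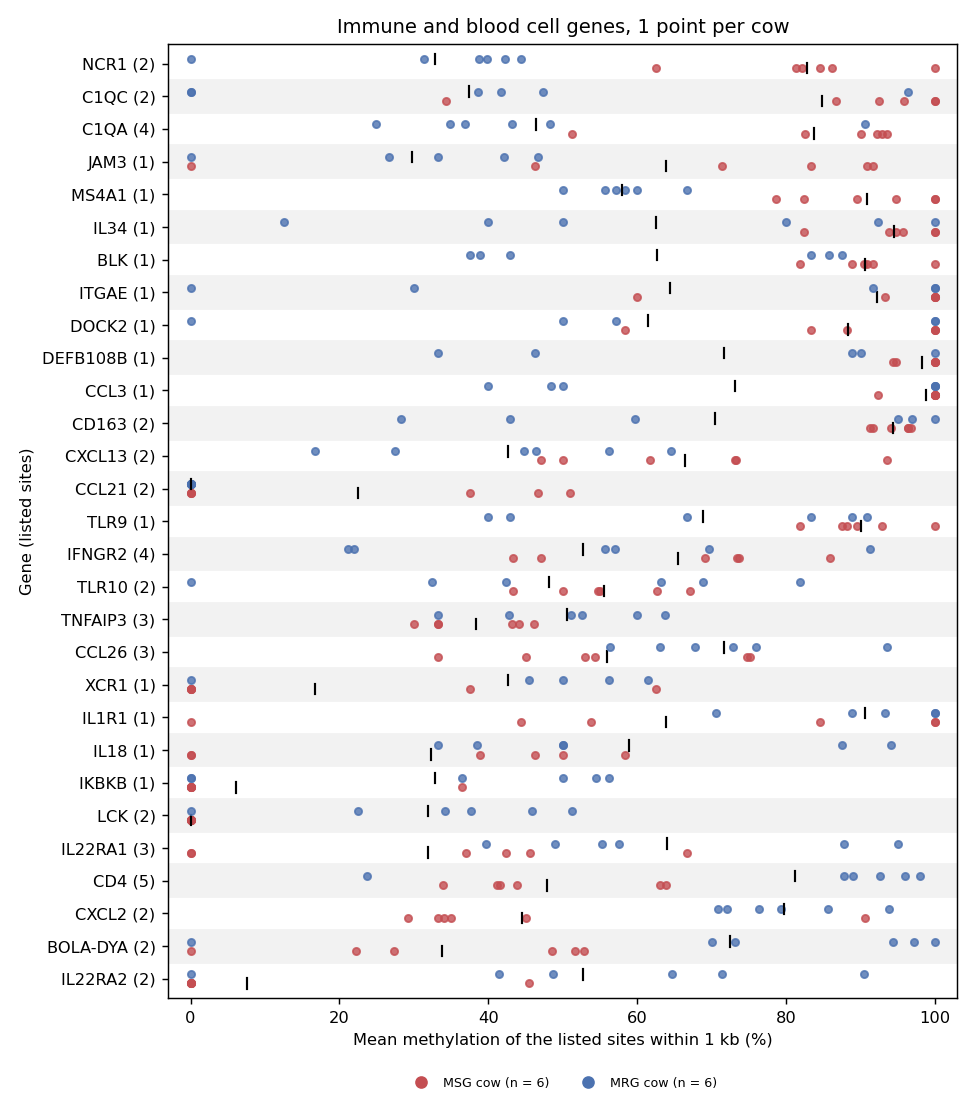
Mean methylation of the listed sites within 1 kb (horizontal axis, percent) for the immune and blood cell genes reported (vertical axis, with its number of sites), 1 point per cow and a bar at each group's mean. NCR1 and MS4A1 show no overlap, and single cows cross between the groups at CD4, C1QA, C1QC and CXCL2.

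BTN1A1 encodes butyrophilin, a protein of the milk fat globule membrane, and was the milk gene with sites near its start. Its 6 sites (chromosome 23, 31590732 to 31591798) were all lower in MSG. MSG replicates 1, 2 and 5 stood at 91.4% to 93.4%, level with 5 MRG cows at 92.2% to 96.4%, and the difference came from MSG replicates 3, 4 and 6 at 48.0%, 38.4% and 6.04%. MRG replicate 4 was at 58.4% (difference -26.9 points, SE 14.5, limma adjusted p = 0.151; -15.8 points without MSG replicate 6).

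The imprinted genes IGF2 and PEG3 had 7 sites, 4 higher and 3 lower. IGF2 encodes a fetal growth factor expressed from the paternal copy in most tissues. Its 3 sites (chromosome 29, 49394677 to 49394986) stood at 64.7% to 97.2% in MSG (median 83.9%) and 31.1% to 69.4% in MRG (median 61.1%), overlapping through MSG replicate 4 and MRG replicate 2 (25.8 points, SE 7.85, limma adjusted p = 0.0663). A single IGF2 cytosine inside the gene (49394985) was farther apart, at 71.4% to 100% in MSG and 11.1% to 42.9% in 5 MRG cows, a difference of 63.8 points (SE 16, limma adjusted p = 0.0781). The cow without a value there was MRG replicate 2. Its mean over the IGF2 sites, 69.4%, therefore leaves out this cytosine, and the overlap of the promoter means rests on that mean. PEG3, a zinc finger gene expressed from the paternal copy, had 2 sites of each direction and stood at means of 55.6% ± 9.14 for MSG and 55.3% ± 15.4 for MRG (SD, n = 6), a difference of 0.344 points (SE 7.62) whose sign turned when some single cows were left out.

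Transporter genes, mainly of the solute carrier families, had 54 sites at 30 genes, 19 higher and 35 lower in MSG (35.2% higher). SLCO1C1, a thyroid hormone transporter, had 7 sites (chromosome 5, 89099152 to 89100944), all lower. In MSG 4 cows were at 0% and MSG replicates 4 and 6 at 37.2% and 42.7%, while 4 MRG cows stood at 76.4% to 85.4%, MRG replicate 5 at 34.5% and MRG replicate 4 at 0%. The difference was -45.8 points (SE 14.7, limma adjusted p = 0.0696), and -57.6 points without MRG replicate 4 (adjusted p = 0.0392), the MRG cow at 0%. With any other single cow left out, limma's adjusted p was 0.0626 to 0.0989. SLC36A3, of the proton-coupled amino acid transporter family, had 6 lower sites (chromosome 7, 62538523 to 62539046), at 0% to 91.9% in MSG and 52.9% to 92.2% in MRG (difference -35.9 points, SE 12.8, limma adjusted p = 0.0771).

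Olfactory receptor genes had the most genes of any family, 74, with 59 sites higher and 55 lower. OR10D1M had 6 sites around its start (chromosome 9, 104375727 to 104376541). MSG stood at 39.6% to 71.4% (median 44.3%), 5 MRG cows were at 0%, and MRG replicate 3 at 39.9% overlapped the lowest MSG cow (42.9 points, SE 8.35, limma adjusted p = 0.0480). At OR2F2B the 4 sites stood at 53.2% to 100% in MSG and 0% to 98.2% in MRG (35.8 points, SE 16.3, limma adjusted p = 0.110).

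Keratin-related genes, which build hair and epithelium, had 14 sites at 6 genes, 5 higher and 9 lower. At KRT33B, a hair keratin gene, all 6 MSG cows were at 0% and so were MRG replicates 1, 2 and 6, with the other 3 MRG cows at 42.2% to 88.0%. KRT75 ran from 0% to 52.0% in MSG and 0% to 90.1% in MRG (limma adjusted p = 0.108 for KRT33B and 0.146 for KRT75). The KRT33B difference of -29.6 points was -17.9 points without MRG replicate 5.

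Zinc finger genes had 37 sites at 22 genes, 18 higher and 19 lower. ZNF423, a transcription factor of fat and brain development, was at 0% in 5 MSG cows and 30% in MSG replicate 6, against 0% to 72.3% in MRG (4 sites, difference -31.4 points, SE 10.6, limma adjusted p = 0.0721). ZNF135 stood at 74.9% to 81.3% in 5 MSG cows and 48.6% in MSG replicate 4, against 32.3% to 77.3% in MRG (6 sites, 23.5 points, SE 8.76, limma adjusted p = 0.0812). Homeobox and other developmental factors had 9 sites, 5 higher, among them 3 at FOXN1, the thymus transcription factor (61.5% to 95.8% in MSG, 33.3% to 91.4% in MRG, limma adjusted p = 0.394). FOXN1 averaged 83.3% in MSG and 72.9% in MRG, and the difference was 2.59 points without MRG replicate 1. The mitochondrial protein list had 5 sites, 1 higher and 4 lower, the potassium channels 2, 1 of each direction, and the ribosomal protein list 4, 3 higher. That last list includes the kinase gene RPS6KA5, which only shares the start of its symbol. No symbol of the small nuclear and nucleolar RNA list had a site near a start.

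Values of exactly 0 touched most of these promoters, so single sites without any were also examined. At 54 of 778 such sites the groups' cows did not overlap (6.94%, against 5.17% of the other listed sites with no cow at 0), 38 higher and 16 lower in MSG. Besides the IGF2 cytosine, the widest were higher in MSG at ACSL6, DCSTAMP and LSP1. ACSL6 activates long-chain fatty acids, and 5 MSG cows stood at 100% against 16.7% to 92.3% in 5 MRG cows at its site 57 bases before the start (chromosome 7, 22495915). DCSTAMP is required for the fusion of osteoclast precursors, and its site (chromosome 14, 60277388) stood at 88.2% to 100% in MSG and 33.3% to 78.6% in MRG. LSP1 encodes an actin-binding protein of leukocytes, and its site inside the gene (chromosome 29, 49623382) stood at 68.8% to 100% in MSG and 11.1% to 66.7% in 5 MRG cows.

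In the other direction stood single sites of CD4, PAPLN, ZC3H14 and PRKX. The CD4 cytosine (chromosome 5, 103646776) was at 42.9% to 85.7% in MSG and 91.7% to 100% in 5 MRG cows, and the cow without a value there was MRG replicate 6, the low one over the other sites. PAPLN, an extracellular matrix gene, stood at 21.4% to 50% in MSG and 58.8% to 77.8% in MRG (chromosome 10, 84702168). ZC3H14, an RNA-binding protein gene, stood at 33.3% to 61.5% and 71.4% to 86.7% (chromosome 10, 100263038). PRKX, an X-linked protein kinase gene, stood at 14.3% to 88.9% in MSG and 93.8% to 100% in MRG (chromosome X, 138348924). Limma's adjusted p for these 8 sites lay between 0.0781 and 0.0909.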

How the data were processed

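Blood DNA of 12 cows, 6 MSG and 6 MRG, was assigned to groups by the labels. The authors deposited percent methylation per cow and CpG cytosine, with their difference in points, p-value, q-value, nearest gene and annotation class, per the file headers. Near starts the smallest absolute difference in the authors' deposited table was 25.0 points and the largest q-value 0.00997. The submitters' processing notes name fastp 0.23.1, Bismark, DRAGEN, ChIPseeker 1.32.1 and the build ARS-UCD1.2. The authors' test of differences, their coverage minimum and their annotation release are not given in the sources used here. In the deposited table of windows, 36 columns of coverage and read counts carried numbers rather than cow names and were not used, so depth is unknown.

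Sites were those whose deposited annotation begins with the class of 1 kb or less. Each site, and each mean over the listed sites of a gene in an annotation class (at least 3 sites), was fitted on percent values with limma 3.58.1 (R 4.3.3), 1 value per cow, two-sided, with Benjamini-Hochberg adjustment over 196275 sites or 11824 means and a threshold of 0.05. Exact permutation tests used all 924 regroupings of the cows (smallest p = 0.00216), and levels between classes were compared within cows by 4096 sign flips, in Python 3.11.15. The fitting code was first tested on simulated data. The names table used for gene types belongs to ARS-UCD2.0 and gave no coordinates.

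Promoters named were genes with a symbol that is no LOC number and at least 3 listed sites: in each direction up to 6 with the largest difference among those without overlap and 4 with the most sites, up to 2 per fixed list, and in each direction the 4 single sites with no cow at 0, no overlap and the largest difference. The members, the 16 pathway and marker lists and the 10 families were chosen with earlier results of these data known. One list gene is not reported here, although the counts include it. Alternatives were an exact test, an arcsine scale, other site and cow filters, CpGs counted once and each cow left out.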

Additional observations from a re-analysis of the deposited data

Results flagged for a closer look

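At 13 named promoters 1 cow, or at C1QA 1 in each group, lay far from the other 5 of its group, by Dixon's criterion at the 95% level. Of 72 groups examined 14 met it. The criterion's rate of about 1 in 20 holds for normally distributed values. Methylation values are bounded and often exactly 0, and the sites were chosen on these cows, so that rate does not apply here. Neighbouring sites and neighbouring genes are also not independent. In MRG, replicate 6 stood at 23.7% at CD4 (other cows 87.7% to 98.0%) and at 90.6% at C1QA (24.9% to 48.3%). MRG replicate 4 stood at 58.4% at BTN1A1 (92.2% to 96.4%), at 75.7% at PLAC8B (30.5% to 47.1%) and at 39.3% at MIR10165 (0% to 0.833%). MRG replicate 5 stood at 31.1% at IGF2 (57.3% to 69.4%). MRG replicate 3 stood at 39.9% at OR10D1M (the others at 0%) and at 21.9% at MYL10 (10.6% to 13.6%).

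In MSG, replicate 1 stood at 75.1% at TAAR3 (36.5% to 45.0%) and at 37.6% at MIR141 (82.0% to 85.3%). MSG replicate 6 stood at 30% at ZNF423 (the others at 0%), replicate 4 at 48.6% at ZNF135 (74.9% to 81.3%), replicate 2 at 53.2% at OR2F2B (88.3% to 100%) and replicate 5 at 51.2% at C1QA (82.5% to 93.6%). The single cows thus differ from promoter to promoter, and both groups are represented.

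The share of sites at exactly 100 was lower within 1 kb than in the outer promoter in all 6 MSG cows (mean difference -0.911 points) and higher in all 6 MRG cows (0.539 points). The difference between the groups was not tested, and the listed sites of the 2 classes had been selected on these groups.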

How the results depend on the processing

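The number of promoters passing limma's test, 13, did not hold under other settings. It was 0 with the exact permutation test, which could pass none here (smallest adjusted p = 0.0759), 0 of 162 with CpGs counted once (5 of the 13 tested), 0 at a threshold of 0.01, 8 on an arcsine scale, 5 of 85 with 5 or more sites, 1 of 190 with a value for all 12 cows, and 34 of 38 without sites with a cow at 0. Leaving out 1 cow gave 0 to 34: 2, 3, 5, 31, 12 and 24 without MSG replicates 1 to 6, and 3, 20, 5, 34, 0 and 26 without MRG replicates 1 to 6. Of the 13, 13 were still called without MSG replicate 4 or MRG replicate 4 or 6, and 8 on the arcsine scale. Without MSG replicates 6 and 5 and MRG replicate 2 in turn, 12, 9 and 11 were. Only 3 were without MSG replicate 2 or MRG replicate 3, and 2 without MSG replicate 3 or MRG replicate 1. Without MSG replicate 1 only 1 was, and without MRG replicate 5 it was 0. Without sites with a cow at 0, only 2 of the 13 could be tested. How many of all gene means by annotation class passed in each setting was not counted, so these counts have no background share. The number of sites passing, 0, became 576 of 778 without sites with a cow at 0 (293 higher, 283 lower; 74.0%, against 73.1% of all 42667 such sites, which are chosen by their values and tested in a smaller table). It ran from 0 to 1 with a cow left out, the 1 being a site of ENSBTAG00000023274 without MSG replicate 6 (adjusted p = 0.0415). The level against other listed sites turned to -0.726 points without sites with a cow at 0. The difference at PEG3 turned to -1.75 and -1.96 points without MSG replicate 3 or 6 and to -1.13, -2.08, -0.958 and -1.43 points without MRG replicate 3, 4, 5 or 6, and was 6.11 points without MRG replicate 2. The cause of these shifts was not tested. The share of sites higher in MSG moved little under the 5 settings tried. Without sites with a cow at 0, CD4 (-32.1 points, limma adjusted p = 0.0157), TMEM97 (-36.3, 0.0116), ZNF135 (33.1, 0.0159) and C1QA (35.3, 0.0116) passed. They did so in a setting in which 34 of 38 promoters passed, so this does not set them apart. Sites below the authors' thresholds and sequencing depth were not analysed here, so neither how many sites near starts differ nor their precision per cow can be given. No paired analysis was possible because the labels give no replicate numbers shared between the groups.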

Other observations

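Sites near starts were crowded in a few places of the genome, given here as values only and named after they were seen. Of windows of 100 kb, 8 held 12 or more of the 3212 sites. Besides the windows of MYL10, ARHGEF10L, NCAM2 and RYR2, these were a window of chromosome 18 (62400001 to 62500000) with 15 sites at LOC100301263 and LOC100852077, 3 higher and 12 lower in MSG, and a window of chromosome 19 (19800001 to 19900000) with 13 sites at SEBOX and TMEM97, 1 higher and 12 lower. A window of chromosome 5 (110500001 to 110600000) held 14 sites at 4 genes, 4 higher and 10 lower. Its genes include APOBEC3H and APOBEC3Z1, cytidine deaminases that act against retroviruses and mobile elements. MIR141 and CD4, which averaged in opposite directions, lie close together on the same chromosome, with first listed sites at 103498606 and 103646708.

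Small RNA genes other than microRNAs showed no shared direction. Small nuclear RNA genes had 66 sites higher and 66 lower in MSG over 75 genes, and small nucleolar RNA genes 26 and 23 over 30 genes. Pseudogenes had 49 higher and 35 lower over 53 genes. Protein-coding genes had 50.9% of 2056 sites higher.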
